A study of Mus musculus with 36 samples.

Results

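The genes described here are 10 genes of the trophectoderm, the outer cell layer of the blastocyst, chosen by name as rows of a mouse gene expression table, and all 10 of 10 were found among its 23845 genes. They are the transcription factors Cdx2, Gata3, Eomes, Tfap2a, Tfap2c and Elf5, the keratins Krt8 and Krt18, the water channel Aqp3 and the sodium pump subunit Atp1b1. Their RNA was sequenced in 36 libraries, each from 4 to 5 mouse embryos pooled together, in a study of LINE-1 retrotransposons after fertilisation. The labels give 6 groups by treatment and developmental stage, namely VP64 at 8C (7 libraries), Ctrl at 8C (6), NI at 8C (6), KRAB at 2C (6), Ctrl at 2C (7) and NI at 2C (4). Here 8C and 2C stand for the 8-cell and 2-cell embryo. VP64 is known as a transcriptional activator domain and KRAB as a transcriptional repressor domain. The sources used here do not say which protein carried either domain, what Ctrl embryos received or what NI stands for, and give no strain, sex or age in hours. KRAB was not combined with 8C, nor VP64 with 2C, so the treatments can only be compared with Ctrl and NI of their own stage. Replicate numbers only name libraries, and nothing in the labels says which pools came from separate animals or cultures, so p-values measure the spread between these pools.

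In the mouse embryo the outer cells of the morula become trophectoderm, the first epithelium, which later forms the placenta. In outer cells Yap1 enters the nucleus and acts with Tead4 to switch on Cdx2 and Gata3, while the Hippo kinases hold Yap1 out of the nucleus in inner cells. The trophectoderm then builds keratin filaments and pumps sodium across its basal side, and water follows to fill the blastocoel. Blastocysts lie beyond the stages sampled here, so these libraries cover the time before and during the first appearance of the trophectoderm programme.

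Total counts per library ran between 1043740 and 13583527, so a gene near 1 CPM (counts per 1e+06) rested on few reads in the shallowest pools. CPM here is the rounded count over the library's total scaled by TMM, a normalization that sets aside genes with extreme ratios. VP64 8C replicate 7 and Ctrl 8C replicate 6 each had the lowest mean rank correlation with the rest of its group, 0.866 and 0.791. Both stood apart by Dixon's test, which compares libraries within a group and cannot flag a group that agrees poorly throughout. No 2C library reached 0.866. These correlations ran from 0.822 to 0.859 in KRAB 2C, 0.622 to 0.791 in Ctrl 2C and 0.729 to 0.807 in NI 2C. Egg markers, such as Oosp1 and Gdf9, summed to between 58.4 and 894.5 CPM in the 19 libraries labelled 8C and to between 5075 and 46906 CPM in the 17 labelled 2C, without overlap. All 12 egg markers and all 12 markers of the 2-cell embryo were detected in every group. The pools are whole embryos, and fewer cells of a type cannot be told apart from less RNA per cell.

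The promoters of the 4 genes that were higher at 8C than at 2C in both Ctrl and NI embryos are shown because those changes are the main result. Each runs 250 bases before to 50 bases after the gene's start, 5′ to 3′ on the gene's strand, from RefSeq on GRCm38.p6. Capitals mark matches on either strand to GCCNNNGGC (a word of the AP-2 factors, the family of Tfap2a and Tfap2c), AGATAA (the word of GATA factors), TATAAA (the TATA box) or GGAATG (Tead factors). The windows lie at chr5:147307200-147307499 (minus strand) for Cdx2, chr15:102004293-102004592 (minus) for Krt8, chr15:102027966-102028265 (plus) for Krt18 and chr4:41098134-41098433 (minus) for Aqp3.
Cdx2: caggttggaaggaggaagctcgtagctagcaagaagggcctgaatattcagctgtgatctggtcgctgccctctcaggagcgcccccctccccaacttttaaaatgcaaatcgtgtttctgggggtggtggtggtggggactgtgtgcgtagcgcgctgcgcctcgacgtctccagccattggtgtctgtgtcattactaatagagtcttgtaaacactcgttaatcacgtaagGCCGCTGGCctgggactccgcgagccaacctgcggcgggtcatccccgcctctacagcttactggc
Krt8: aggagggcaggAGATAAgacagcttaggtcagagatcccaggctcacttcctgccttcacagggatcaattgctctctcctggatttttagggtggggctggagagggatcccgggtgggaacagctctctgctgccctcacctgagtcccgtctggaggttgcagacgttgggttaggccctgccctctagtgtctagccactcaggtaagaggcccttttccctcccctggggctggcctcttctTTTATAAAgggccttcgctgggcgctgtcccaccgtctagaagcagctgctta
Krt18: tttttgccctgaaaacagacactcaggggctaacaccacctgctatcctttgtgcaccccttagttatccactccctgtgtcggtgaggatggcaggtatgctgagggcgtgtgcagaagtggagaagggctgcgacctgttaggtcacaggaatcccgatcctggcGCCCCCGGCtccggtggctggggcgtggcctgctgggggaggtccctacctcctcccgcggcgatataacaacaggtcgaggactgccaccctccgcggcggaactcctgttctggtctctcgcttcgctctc
Aqp3: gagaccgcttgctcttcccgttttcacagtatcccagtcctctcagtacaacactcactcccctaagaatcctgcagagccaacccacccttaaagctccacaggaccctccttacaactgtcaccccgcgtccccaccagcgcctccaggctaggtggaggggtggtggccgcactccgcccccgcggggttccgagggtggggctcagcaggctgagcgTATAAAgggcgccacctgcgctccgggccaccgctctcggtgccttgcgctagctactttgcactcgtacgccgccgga
Among 32851 RefSeq windows of this length, 16.6% hold the AP-2 word, 11.2% the GATA word, 13.6% the TATA word and 14.7% the Tead word. The AP-2 word stood 16 bases before the start of Cdx2 (offset -16) and 83 bases before that of Krt18 (offset -83). Aqp3 had a TATA word at offset -29, and Krt8 had a GATA word at -239 and 2 overlapping TATA matches on opposite strands at -3 and -1. Of the other members with a window, Gata3 held 3 AP-2 words and Elf5 held 1 Tead word, while Eomes, Tfap2a and Atp1b1 held none of the 4 words. These matches describe letters only. Krt8 and Krt18 are neighbours on chromosome 15, with 23697 bases and 0 annotated genes between them, and are transcribed away from each other.

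The question asked first was how the genes differed between stages, which the labels allow in Ctrl and in NI embryos. In Ctrl embryos 4 of the 8 members tested were higher at 8C than at 2C and 0 were lower, where 61.5% of all 13158 genes passed in either direction, 22.5% higher and 39% lower. NI embryos had 6 of 8 higher and 0 lower, where 49.9% of all genes passed, 18.5% higher and 31.4% lower. A fit of the 10 NI libraries alone called 6 members higher and 0 lower, with 2494 genes higher and 2597 lower, against 2433 and 4129 with all libraries. Cdx2, Krt8, Krt18 and Aqp3 passed in both, and Gata3 and Tfap2c passed in NI. The groups did not overlap in CPM, with 8C higher, for 2 members in Ctrl (7.11% of all genes) and for 3 in NI (12.8% of all genes). The median log2 fold change of the tested members was 1.82 in Ctrl and 2.38 in NI, beside -0.51 and -0.47 over all genes tested. The fit of the NI libraries alone, over 10565 genes, gave a median over all genes of 0.09 in place of -0.47. Tfap2a and Elf5 had too few counts to be tested, and Eomes and Atp1b1 did not pass. Cdx2 was too low to be tested among the 2C libraries alone, and its 8C counts brought it into this test. The count filter thus shapes these tallies and medians. With no count filter, 4 of 10 members were higher and 0 lower in Ctrl. In NI, 6 were then higher and 1, Tfap2a, was lower. All p-values are two-sided, from edgeR's quasi-likelihood test with Benjamini-Hochberg adjustment over all genes, and a gene passed at an adjusted p under 0.05. Estimates carry their standard error (SE).

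**Figure D1:**
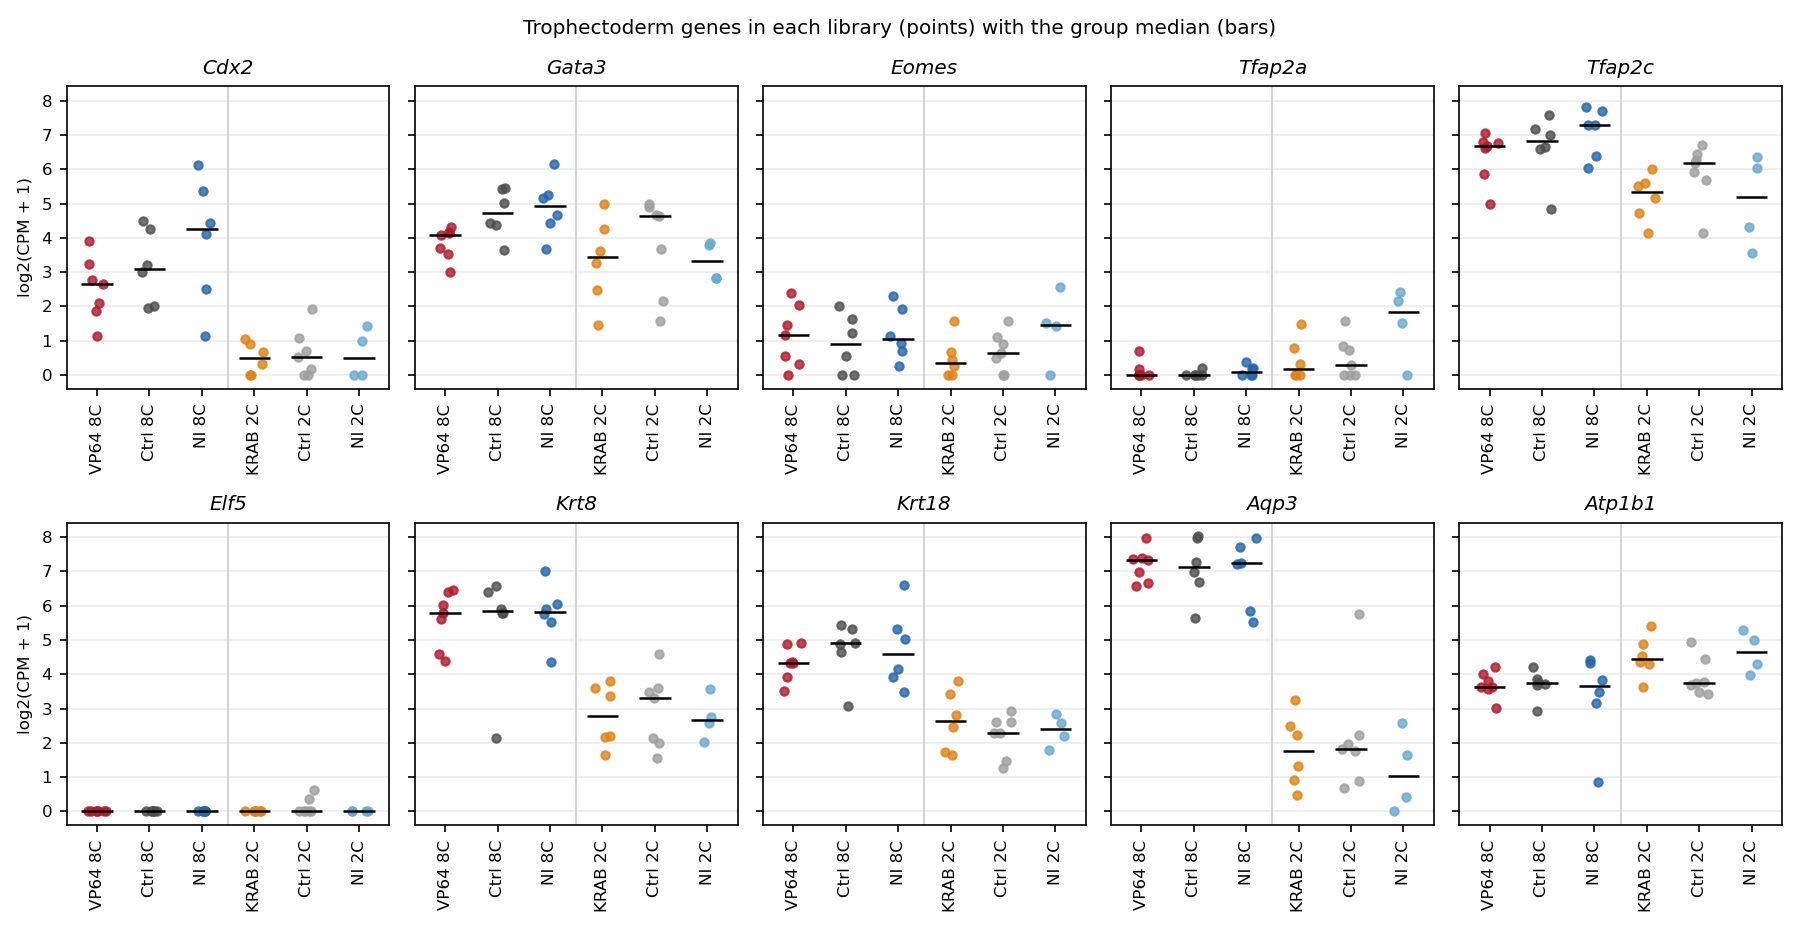
Expression of the 10 genes as log2(CPM + 1) on the vertical axis, with a point for each library and a bar at the median of each of the 6 groups. Cdx2, Krt8, Krt18 and Aqp3 sit higher in the 8C groups on the left of each panel, and Elf5 lies at 0 in all but 2 libraries.

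Cdx2, the homeodomain factor that the trophectoderm needs to keep its identity, was nearly silent at 2C and present in every 8C library. In Ctrl embryos Cdx2 ran from 2.86 through a median of 7.60 to 21.6 CPM at 8C (n = 6), against 0 through 0.427 to 2.79 CPM at 2C (n = 7). These groups did not overlap, although the highest 2C library and the lowest 8C library were close. In NI embryos it ran from 1.21 through a median of 18.4 to 68.7 CPM at 8C, against 0, 1.68, 0 and 0.990 CPM in the 4 libraries at 2C. Here 5 of 6 libraries at 8C lay above every 2C library. The log2 fold change was 3.57 ± 0.79 (SE, adjusted p = 0.000192) in Ctrl and 4.90 ± 1.07 (adjusted p = 0.000282) in NI. It became 4.25 in Ctrl without Ctrl 2C replicate 3, and in NI 4.20 without NI 8C replicate 4 and 5.52 without NI 2C replicate 2. Within NI 8C the libraries differed widely, with a coefficient of variation of 100.4%, the largest among the 6 members that passed there.

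Gata3, a zinc finger factor that acts in parallel with Cdx2, already gave reads at 2C in all 17 libraries. At 8C it ran from 11.4 through a median of 25.9 to 43.2 CPM in Ctrl embryos, against 1.96 through 24.0 to 31 CPM at 2C. These ranges overlapped for most of their length, and the log2 fold change of 0.64 ± 0.52 did not pass (adjusted p = 0.290). NI embryos had 11.7 through a median of 29.8 to 70.1 CPM at 8C, against 6.15, 13.4, 12.9 and 6.11 CPM at 2C. Of these 6 libraries at 8C, 5 exceeded every 2C library, and Gata3 rose by 1.79 ± 0.66 on the log2 scale (adjusted p = 0.0227). The call did not hold without NI 2C replicate 1 (1.63, adjusted p = 0.0656), NI 2C replicate 4 (1.52, 0.0873) or NI 8C replicate 4 (1.29, 0.103), nor with the size factors of DESeq2 in place of TMM (1.51, 0.0549). Gata3 overlaps the genes Gm13256 and 4930412O13Rik on the opposite strand and 9230102O04Rik on its own, and no source used here states stranded counting. For Gata3, 0 library values were not whole numbers. Whether it shares reads with those genes was not tested.

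Tfap2c, an AP-2 factor present from the egg onward, was the most abundant of the 6 factors in all 6 groups, per length of transcript. Ctrl embryos had 27.4 through a median of 111.9 to 189.6 CPM at 8C, against 16.7 through 72.3 to 103.1 CPM at 2C, and these ranges overlapped. The log2 fold change of 0.76 ± 0.45 did not pass (adjusted p = 0.139). It was 0.97 (adjusted p = 0.0490) without the 2 libraries that stood apart, a setting chosen after seeing the data. NI embryos had 64.4 through a median of 155.9 to 225.8 CPM at 8C, against 19.1, 80.4, 10.8 and 64.8 CPM at 2C. There 5 of 6 libraries at 8C lay above all 4 at 2C, and the log2 fold change was 1.75 ± 0.56 (adjusted p = 0.00899). The call held in all 10 fits that left out 1 library, but narrowly without NI 2C replicate 3 (1.43, adjusted p = 0.0463).

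Whether the stage change differs between Ctrl and NI was tested by the interaction. Neither Gata3 (-1.14 ± 0.82, adjusted p = 0.446) nor Tfap2c (-0.99 ± 0.70, adjusted p = 0.439) passed, so passing in NI and not in Ctrl is not shown to be a difference between them. The interaction called 0 of 8 members and 0% of 13158 genes, with 0 members and 20.4% of genes at an unadjusted p under 0.05. DESeq2 called 693 genes there and 0 members.

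Eomes, a T-box factor of the trophoblast stem cell, stayed low at both stages. At 8C it ran from 0 through 0.917 to 2.99 CPM in Ctrl embryos and from 0.198 through 1.06 to 3.94 CPM in NI embryos. At 2C it ran from 0 through 0.545 to 1.96 CPM in Ctrl embryos and stood at 1.85, 1.68, 0 and 4.95 CPM in NI embryos. All of these ranges overlapped, and the log2 fold changes of 0.96 ± 1.0 in Ctrl (adjusted p = 0.414) and -0.55 ± 1.05 in NI (adjusted p = 0.685) did not pass. The sign in NI turned to 0.21 without NI 2C replicate 4, which held the highest 2C value. Counts of Eomes may include those of Gm33460 on the opposite strand.

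Tfap2a, a second AP-2 factor, and Elf5, an Ets factor that keeps trophoblast stem cells in their lineage, gave almost no reads. Tfap2a had 1 count over all 6 Ctrl libraries at 8C, against 15 over the 7 Ctrl libraries at 2C. In NI embryos it had 4 counts over 6 libraries at 8C, against 30 over 4 at 2C. The ratio of counts, each relative to the group's total, was 0.102 (95% interval 0.00243 to 0.664) in Ctrl and 0.0433 (0.0111 to 0.123) in NI. These intervals treat each read as an independent count and leave out the spread between libraries. Because SMART-seq v4 reads have no molecular identifiers, the intervals may be too narrow even for counting error. Of the 30 counts in NI at 2C, 21 came from replicate 4. Tfap2a did not reach the count filter, and without that filter it was lower in NI (edgeR, -3.98 ± 1.24, adjusted p = 0.00983) and did not pass in Ctrl (-2.70 ± 1.26, adjusted p = 0.0716). It overlaps the antisense genes Gm47061, Gm26688 and Gm47067, and 13 of its 36 library values were not whole numbers. Elf5 had 6 counts in all, in 2 of the 7 Ctrl libraries at 2C, and 0 in each other group. A count of 0 allows up to 0.114 CPM over the VP64 8C libraries, 0.115 over Ctrl 8C, 0.0884 over NI 8C, 0.198 over KRAB 2C and 0.272 over NI 2C, taking 3 counts over the group as the limit.

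Krt8 and Krt18 are the type II and type I keratins that pair to form the first intermediate filaments of the embryo. Krt8 in Ctrl embryos ran from 3.43 through a median of 56.6 to 93.7 CPM at 8C, against 1.96 through 8.93 to 23.3 CPM at 2C. Of these 6 libraries at 8C, 5 exceeded all 7 at 2C, and the exception was replicate 6, which stood apart. In NI embryos Krt8 ran from 19.7 through 55.9 to 127.6 CPM at 8C, against 3.08, 10.8, 5.03 and 5.78 CPM at 2C, without overlap. Krt8 rose by 2.68 ± 0.56 on the log2 scale in Ctrl (adjusted p = 8.59e-05) and by 3.29 ± 0.72 in NI (adjusted p = 0.000300). Krt18, its partner, ran from 7.43 through a median of 29.0 to 42.7 CPM in Ctrl embryos at 8C, against 1.43 through 3.92 to 6.64 CPM at 2C. NI embryos had 10.2 through 24.2 to 97.1 CPM at 8C, against 2.46, 5.04, 3.60 and 6.11 CPM at 2C. Neither pair of groups overlapped, and the log2 fold change was 2.83 ± 0.51 in Ctrl (adjusted p = 1.26e-05) and 2.97 ± 0.65 in NI (adjusted p = 0.000255). Krt8 overlaps Gm36026 on the opposite strand and may share reads with it. Of the Krt8 library values, 0 were not whole numbers, and whether reads were shared was not tested.

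Aqp3, an aquaglyceroporin that passes water and glycerol, showed the largest stage change among the members in both Ctrl and NI. In Ctrl embryos it ran from 48.6 through a median of 140.0 to 259.5 CPM at 8C, against 0.618 through 2.56 to 52.9 CPM at 2C. A single 2C library, replicate 3, reached 52.9 CPM, above the lowest 8C library, and the other 6 at 2C lay at or below 3.65 CPM. NI embryos had 45.5 through a median of 149.6 to 251.0 CPM at 8C, against 0, 5.04, 2.16 and 0.330 CPM at 2C, without overlap. The log2 fold change was 4.01 ± 0.77 in Ctrl (adjusted p = 2.88e-05) and 6.17 ± 1.12 in NI (adjusted p = 2.56e-05). It was 6.07 in Ctrl without replicate 3 of 2C and 7.61 in NI without replicate 2 of 2C. The interaction for Aqp3 was -2.16 ± 1.17 (adjusted p = 0.293), and it was 0.0063 without that Ctrl library.

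The same library, Ctrl 2C replicate 3, held the highest value of its group for Cdx2 (2.79 CPM), Krt8 (23.3 CPM), Krt18 (6.64 CPM) and Tfap2c (103.1 CPM). Among 2427 other genes that were higher at 8C in NI embryos, it was the highest of the 7 Ctrl 2C libraries for 40.9%, where the other 6 were highest for between 2.84% and 15%. Its egg markers summed to 13974 CPM, inside the 5075 to 41892 CPM of that group. Ctrl 8C replicate 6 was the lowest of its 6 libraries for 47.9% of the same genes, where the other 5 were lowest for between 5.52% and 15.7%. That library also had the largest egg marker sum at 8C, 894.5 CPM, the largest sum of inner cell mass markers, 22874 CPM, and the fewest genes detected, 9672. The part of these libraries' make-up in the members' values was not tested.

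Atp1b1, the beta subunit that carries the sodium pump to the membrane, did not pass in Ctrl or in NI. In Ctrl embryos it ran from 6.58 through 12.4 to 17.5 CPM at 8C, against 9.70 through 12.6 to 29.9 CPM at 2C. NI embryos had 0.805 through 11.7 to 20.2 CPM at 8C, against 14.8, 30.7, 18.7 and 38.0 CPM at 2C. In NI 4 of 6 libraries at 8C lay below every 2C library. The log2 fold change was -0.31 ± 0.44 in Ctrl (adjusted p = 0.560) and -1.10 ± 0.50 in NI (adjusted p = 0.0626). In NI it passed as lower with the size factors of DESeq2 (-1.30, adjusted p = 0.0231), with DESeq2 (-1.31, adjusted p = 0.00855) and in 3 of 10 fits that left out 1 library. It did not pass with no count filter (edgeR, -1.01, adjusted p = 0.138) or in the fit of the NI libraries alone (edgeR, -0.95, adjusted p = 0.209). Atp1b1 overlaps Nme7 on the opposite strand, and 33 of its 36 library values were not whole numbers, so its estimate is uncertain.

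**Figure D2:**
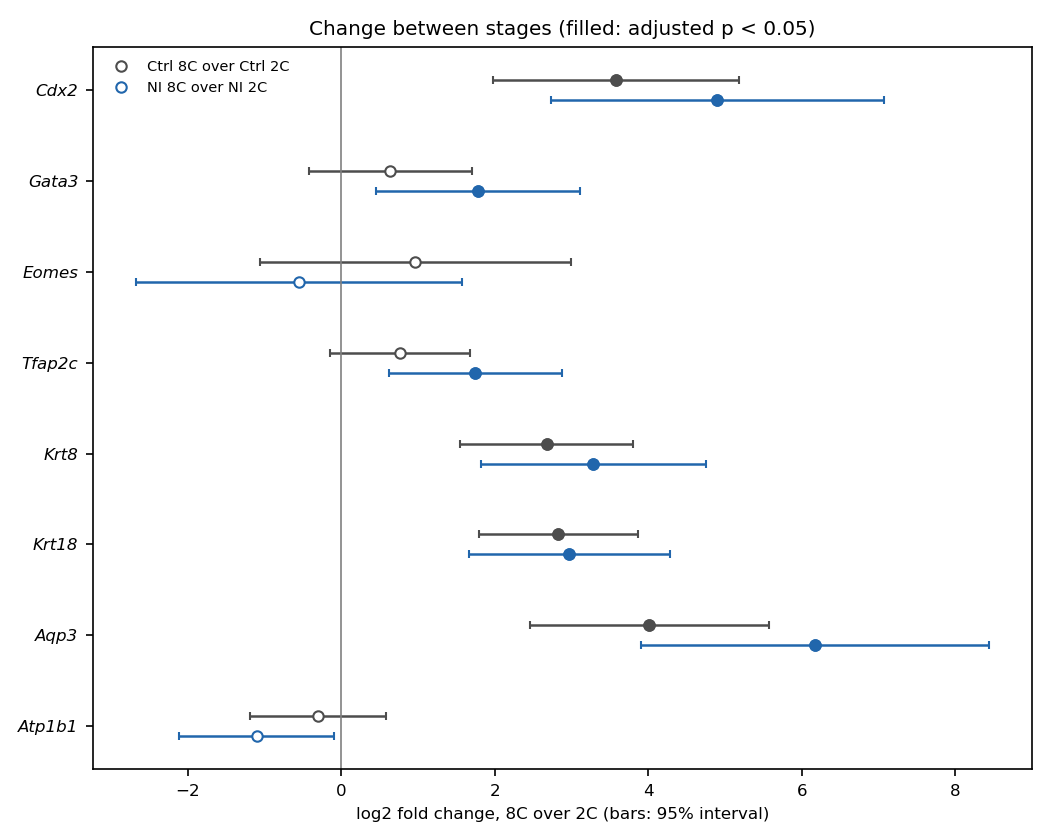
Log2 fold change of 8 members, 8C over 2C, on the horizontal axis, with 95% intervals, for Ctrl (grey, upper of each pair) and NI (blue, lower). Filled points had an adjusted p under 0.05, and Aqp3 lies farthest to the right, at 4.01 in Ctrl and 6.17 in NI.

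Levels of different genes can be compared only per length of transcript, so mean CPM were divided by the exon length in kb. In NI embryos at 8C, Aqp3 led with 78.6 ± 44.6 CPM per kb, then Tfap2c with 40.3 ± 17.5, Krt8 with 31.5 ± 18.4, Krt18 with 24.2 ± 22.6, Cdx2 with 11.2 ± 11.2, Gata3 with 8.32 ± 5.13 and Atp1b1 with 3.86 ± 2.35 (SD, n = 6). Neighbours in this order differed by less than the larger of their SDs. At 2C in NI embryos the order opened instead with Tfap2c at 11.9 ± 9.26 and Atp1b1 at 8.29 ± 3.47 CPM per kb, and Aqp3 stood at 1.03 ± 1.26 (SD, n = 4).

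Partner keratins were also compared library by library. The ratio of Krt8 to Krt18 per length had medians of 1.79 in VP64 8C, 1.40 in Ctrl 8C, 2.48 in NI 8C, 0.734 in KRAB 2C, 1.58 in Ctrl 2C and 0.972 in NI 2C. It lay below 1 in 0 of 7 VP64 8C, 1 of 6 Ctrl 8C and 2 of 6 NI 8C libraries, and in 4 of 6 KRAB 2C, 3 of 7 Ctrl 2C and 2 of 4 NI 2C libraries. Within a group their log2(CPM + 1) correlated with Pearson's r = 0.80 over 7 VP64 8C libraries (exact permutation p = 0.0337, adjusted over 5 groups 0.0972) and Spearman's rho = 0.46 (exact p = 0.302, adjusted 0.495). In Ctrl 8C r was 0.94 (exact permutation p = 0.0389, adjusted 0.0972) and rho was 0.54 (exact p = 0.297, adjusted 0.495). Without the 2 libraries farthest from the median of Krt8, r was 0.059 in VP64 8C and 0.79 in Ctrl 8C (exact permutation p of 0.917 and 0.167, adjusted 0.917 and 0.833). Leaving out the libraries farthest in Krt8 also narrows the range of Krt8. With so few libraries left, neither value could settle whether the keratins correlate. No group passed after adjustment. Elsewhere r was -0.16 in NI 8C, 0.27 in KRAB 2C and 0.044 in Ctrl 2C (exact permutation p of 0.803, 0.554 and 0.924, adjusted 0.924, 0.924 and 0.924; rho of -0.37, 0.54 and 0.39 with exact p of 0.497, 0.297 and 0.396). NI 2C, with 4 libraries, was not tested.

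**Figure D3:**
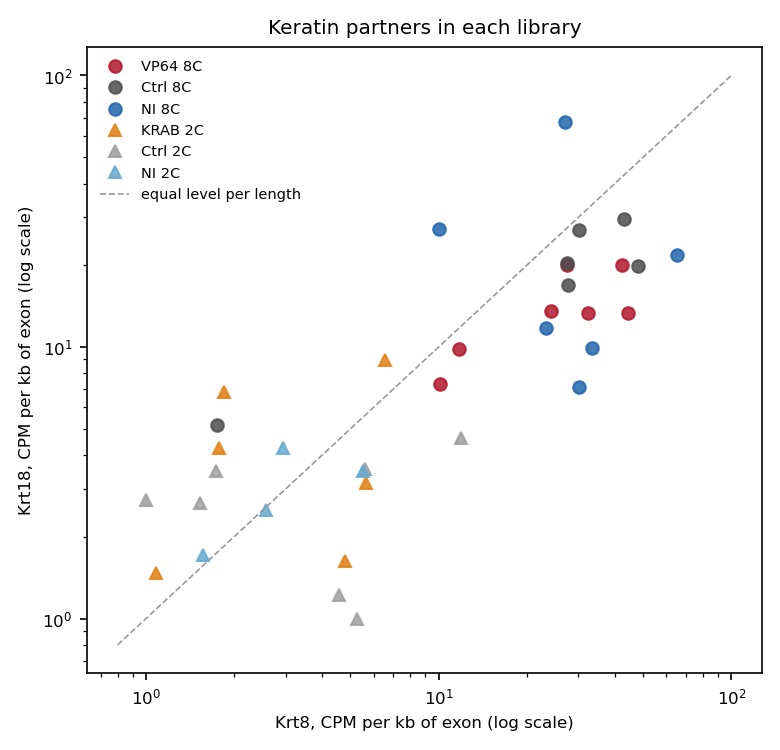
Krt8 on the horizontal and Krt18 on the vertical axis, both in CPM per kb of exon on log scales, with a point for each library (circles 8C, triangles 2C) and a dashed line at equal levels. Most 8C libraries lie at the upper right, and Ctrl 8C replicate 6 is the lowest of them, at 1.75 CPM per kb of Krt8 and 5.17 of Krt18. Some other 8C libraries also overlap the 2C range in a keratin. For example, VP64 8C replicate 7 had 10.1 and 7.3, where Ctrl 2C replicate 3 reached 11.9 of Krt8 and KRAB 2C replicate 2 reached 8.96 of Krt18.

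The second question was whether embryos given VP64 differed at 8C. None of the 7 members tested passed against Ctrl, and 0 passed against NI, where 0% of 9850 genes passed in each comparison. The comparisons share the VP64 libraries. At an unadjusted p under 0.05, 1 member was lower against Ctrl, where 2.45% of all genes were lower, and 2 were lower against NI, where 3.4% were. They are Gata3 in both comparisons and Cdx2 against NI, factors of the early trophectoderm programme, and neither holds after adjustment.

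Cdx2 ran from 1.198 through a median of 5.23 to 13.99 CPM in VP64 embryos (n = 7), against 2.86 through 7.60 to 21.6 CPM in Ctrl and 1.21 through 18.4 to 68.7 CPM in NI. All 7 VP64 libraries lay below the NI median, and the ranges overlapped. The log2 fold change was -0.79 ± 0.66 over Ctrl (unadjusted p = 0.242, adjusted p = 0.999) and -2.08 ± 0.66 over NI (unadjusted p = 0.00459, adjusted p = 0.611). Ctrl over NI gave -1.29 ± 0.68 for the same gene (unadjusted p = 0.0706, adjusted p = 1). Without NI 8C replicate 4, the deepest library and the highest in Cdx2, VP64 over NI was -1.49.

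Gata3 in VP64 embryos ran from 7.08 through 16.02 to 18.8 CPM, against 11.4 through 25.9 to 43.2 CPM in Ctrl and 11.7 through 29.8 to 70.1 CPM in NI. Each VP64 library lay below the medians of Ctrl and of NI, but 5 of 7 lay inside either range. The log2 fold change was -1.01 ± 0.39 over Ctrl (unadjusted p = 0.0168, adjusted p = 0.999) and -1.22 ± 0.39 over NI (unadjusted p = 0.00468, adjusted p = 0.611). Over the 13 fits that left out 1 library each, the estimate stayed between -1.17 and -0.84 against Ctrl, and between -1.36 and -0.87 against NI.

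The remaining members gave no p under 0.05, even unadjusted, in VP64 embryos. Tfap2c ran from 30.6 through 101.5 to 131.7 CPM, and its log2 fold change was -0.33 ± 0.39 over Ctrl and -0.69 ± 0.39 over NI. Krt8 ran from 19.8 through 53.7 to 86.8 CPM (-0.12 ± 0.49 over Ctrl, -0.18 ± 0.49 over NI), and Krt18 from 10.5 through 19.2 to 28.8 CPM (-0.53 ± 0.46 and -0.80 ± 0.46). Krt18 over NI was -0.14 without NI 8C replicate 6. Aqp3 ran from 93.4 through 159.3 to 251.3 CPM, and its 95% interval was -0.91 to 0.79 over Ctrl and -0.76 to 0.94 over NI. Atp1b1 ran from 7.05 through 11.5 to 17.6 CPM, with an interval of -0.92 to 0.90 over Ctrl. These intervals allow changes of nearly 1 on the log2 scale in either direction. Eomes, at 0 through 1.25 to 4.20 CPM, and Tfap2a, with 4 counts in all, were not tested there.

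**Figure D4:**
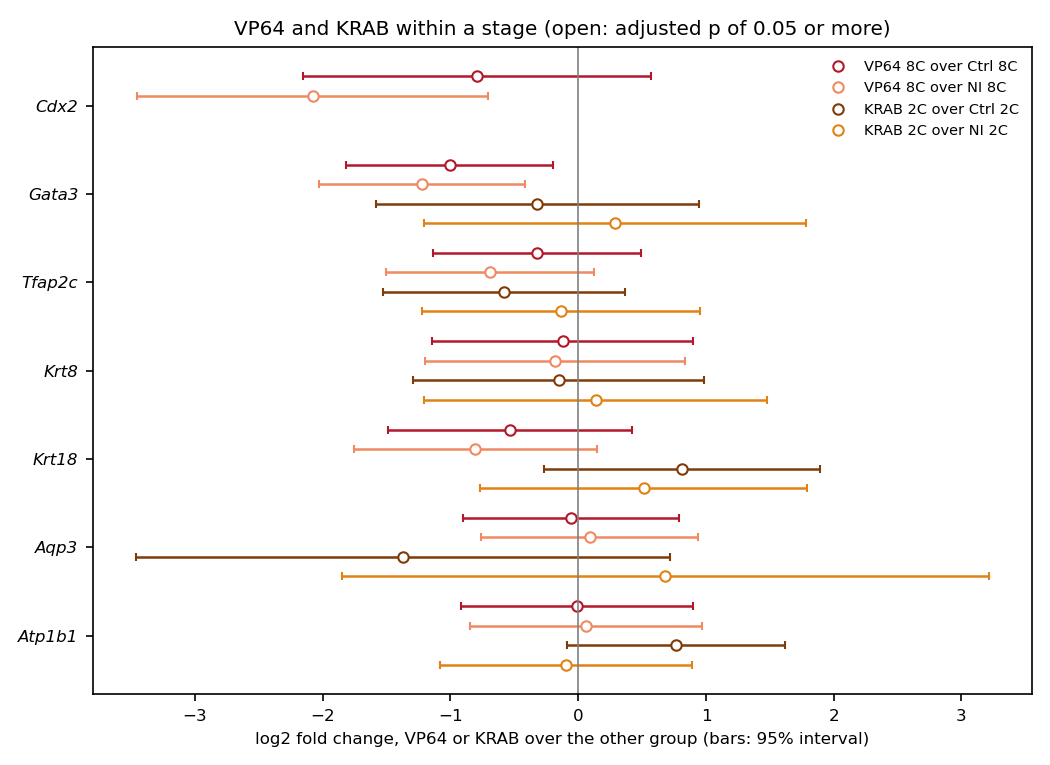
Log2 fold change of 7 members in VP64 8C embryos over Ctrl 8C and over NI 8C, and of 6 members in KRAB 2C embryos over Ctrl 2C and over NI 2C, with 95% intervals. All points are open, since none had an adjusted p under 0.05, and the intervals of Gata3 (both VP64 comparisons) and of Cdx2 (VP64 over NI) lie below 0.

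The third question was whether embryos given KRAB differed at 2C. None of the 6 members tested passed over Ctrl or over NI, where 0% of 11799 genes passed by edgeR in each, and 0 members had an unadjusted p under 0.05. At that unadjusted threshold 15.6% of all genes differed over Ctrl and 3.12% over NI, and DESeq2 called 221 genes over Ctrl and 0 over NI, with 0 members in both. Atp1b1 came nearest, with 11.3 through 20.9 to 41.1 CPM in KRAB embryos, against 9.70 through 12.6 to 29.9 CPM in Ctrl and 14.8, 30.7, 18.7 and 38.0 CPM in NI. Here 5 of 6 KRAB libraries lay above the Ctrl median, and the log2 fold change was 0.76 ± 0.41 over Ctrl (unadjusted p = 0.0769, adjusted p = 0.361) and -0.09 ± 0.47 over NI (adjusted p = 0.999).

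Krt18 had 2.11 through 5.32 to 12.9 CPM in KRAB embryos, with 0.82 ± 0.52 over Ctrl (adjusted p = 0.430) and 0.51 ± 0.61 over NI (adjusted p = 0.999). Krt8, its partner, had 2.11 through 6.50 to 12.9 CPM, with -0.15 ± 0.55 over Ctrl and 0.14 ± 0.64 over NI. Gata3 ran from 1.74 through 9.92 to 30.5 CPM (-0.32 ± 0.61 and 0.29 ± 0.72), and Tfap2c from 16.5 through 39.8 to 63.5 CPM (-0.58 ± 0.45 and -0.14 ± 0.52). Aqp3, at 0.401 through 2.58 to 8.44 CPM, had wide intervals, from -3.46 to 0.72 over Ctrl and from -1.85 to 3.22 over NI. Its estimate of -1.37 over Ctrl turned to 0.65 without Ctrl 2C replicate 3, the high library described above, and was 0.67 with DESeq2. Over NI it was 0.68, and 2.02 without NI 2C replicate 2. Cdx2 had 8 counts over the 6 KRAB libraries, against 39 in Ctrl and 13 in NI, a ratio relative to the groups' totals of 0.544 (95% counting interval 0.220 to 1.18) over Ctrl and 0.449 (0.161 to 1.17) over NI. Of those 39 counts, 21 came from Ctrl 2C replicate 3, so the ratio over Ctrl rests largely on that library. Counting intervals leave out the spread between libraries. Eomes had 7 counts in KRAB, against 16 in Ctrl and 40 in NI. Relative to the groups' totals its ratio was 1.16 (95% counting interval 0.404 to 2.98) over Ctrl and 0.128 (0.048 to 0.288) over NI. Tfap2a had 9 counts, against 15 and 30, with ratios of 1.59 (0.614 to 3.88) and 0.219 (0.0914 to 0.473). In NI, replicate 4 alone held 30 of the 40 Eomes counts and 21 of the 30 Tfap2a counts. Cdx2, Eomes, Tfap2a and Elf5 had too few counts to be tested at 2C.

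Ctrl and NI embryos of the same stage were also set against each other. Of the members tested, 0 of 7 passed at 8C and 0 of 6 at 2C, where 0% of genes passed in each, and none had an unadjusted p under 0.05, where 4.36% of genes did at 8C and 23.4% at 2C. DESeq2 called 1 gene at 8C and 1071 at 2C, with 0 members in both. At 2C Aqp3 was 2.06 ± 1.22 (adjusted p = 0.302) in Ctrl over NI, but 0.0086 without Ctrl 2C replicate 3 and -0.0065 with DESeq2. Atp1b1 was -0.86 ± 0.45 (adjusted p = 0.254).

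Other genes of the pathway were read from lists. Beside their counts stand the shares of all genes tested, 22.5% higher and 39% lower in Ctrl and 18.5% and 31.4% in NI, and the medians over all genes, -0.51 and -0.47. The NI median over all genes depended on the fit, and was 0.09 with the NI libraries alone. Of 19 tested regulators upstream of Cdx2 (Tead, Hippo and Notch genes), 6 were higher and 5 lower at 8C in Ctrl embryos and 6 higher and 4 lower in NI embryos, with medians of 0.21 and 0.86 on the log2 scale. Tead4, the DNA-binding partner of Yap1, averaged 200.2 ± 44.7 CPM in NI embryos at 8C, against 14.4 ± 8.35 CPM at 2C (SD, n = 6 and 4; log2 fold change 3.77 ± 0.82, adjusted p = 0.000262). Amotl2, an angiomotin that binds Yap1, was higher by 3.94 ± 0.79 in Ctrl (adjusted p = 5.75e-05) and 6.04 ± 1.21 in NI (adjusted p = 9.60e-05). Yap1 itself was lower, at 39.8 ± 16.7 CPM at 8C against 245.1 ± 49.2 CPM at 2C in Ctrl embryos (-2.62 ± 0.36, adjusted p = 1.15e-07) and 46.6 ± 12.7 against 479.2 ± 289.2 CPM in NI embryos (-3.36 ± 0.40, adjusted p = 1.99e-08). The Hippo kinase gene Stk3 was also lower in both (-3.86 ± 0.59 in Ctrl, -2.56 ± 0.60 in NI), and the kinase gene Lats2 was higher in Ctrl (2.62 ± 0.46, adjusted p = 8.25e-06).

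Among 19 tested other regulators of trophectoderm and trophoblast, 4 were higher and 10 lower in Ctrl, and 6 higher and 7 lower in NI. The 4 higher in Ctrl are a share near that of all genes. The list's median was -2.37 in Ctrl and -0.32 in NI. Sox15, a factor of trophoblast giant cells, averaged 932.8 ± 490.1 CPM at 8C against 46.9 ± 48.4 CPM at 2C in Ctrl embryos (4.31 ± 0.56, adjusted p = 3.40e-08). Hand1, a basic helix-loop-helix factor of giant cells, was higher in NI by 5.83 ± 1.25 (adjusted p = 0.000211). Tfap2e, an AP-2 relative of the members, was lower in both, by -4.55 ± 0.74 in Ctrl and -6.22 ± 0.84 in NI.

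Only 8 of 21 other keratins and desmosome genes could be tested, and 1 was higher and 4 lower in Ctrl, 1 higher and 3 lower in NI, not far from the shares of all genes. Krt7, a keratin of simple epithelia and trophoblast, was the one that rose, to 2.95 ± 1.83 CPM in Ctrl 8C against 0.395 ± 0.999 CPM in Ctrl 2C (2.61 ± 0.93, adjusted p = 0.0140). Pkp4, a plakophilin-related junction gene, was lower in both (-3.03 ± 0.42 in Ctrl, -2.54 ± 0.44 in NI). Of 12 tested genes of blastocoel fluid transport, 5 were higher and 4 lower in Ctrl and 3 higher and 3 lower in NI. Fxyd4, a regulator of the pump, was higher in Ctrl by 3.57 ± 0.74 and in NI by 4.88 ± 1.04. Inner cell mass and pluripotency markers, of which 16 were tested, were higher in 7 and lower in 1 in Ctrl and in NI alike, where 22.5% and 18.5% of all genes were higher.

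In none of the comparisons of VP64, KRAB or Ctrl within a stage did any gene of these lists pass by edgeR. Relative to Ctrl, the 19 upstream regulators had a median of -0.38 in VP64 embryos, beside -0.06 over all genes, and the 10 fluid transport genes tested had 0.21. Relative to NI these medians were -0.54 and 0.49, beside -0.07. Relative to Ctrl, the 18 upstream regulators had a median of 0.16 in KRAB embryos, beside -0.13 over all genes, and relative to NI a median of -0.12, beside -0.02.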

How the data were processed

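RNA was measured in 36 libraries of pooled mouse embryos, with SMART-seq v4 cDNA per the labels' protocols. The deposited values are estimated counts per gene. The submitters' processing notes name Bowtie2, RSEM and mm10, without versions, and the sources here do not state strandedness. Of all values 9.85% were not whole. Counts were rounded and tested with edgeR 4.0.16 (glmQLFit with the robust option, TMM, filterByExpr with a minimum count of 10 and minimum total of 15, R 4.3.3), fitted on 17 libraries for comparisons at 2C (11799 genes), 19 at 8C (9850) and 36 between stages (13158). The biological coefficient of variation was 0.738, 0.609 and 0.703. DESeq2 1.42.0, its size factors, no filter, fits on the compared groups only or on all libraries, and leaving out each library were alternatives, and the code was tested on simulated data. No libraries agreed within sampling noise (lowest chi-square per gene 7.75). Positions come from GENCODE M21.

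All 10 members are described, and of each further list up to 4 passing genes with the smallest adjusted p qualify for naming, of which some are not reported here. The members and lists were chosen with earlier results of these data known. Genes like a member are the 3 with the highest correlation over 36 libraries.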

Additional observations from a re-analysis of the deposited data

Results flagged for a closer look

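Of 55 sets of a gene in a group of 4 to 7 libraries, 8 held a library apart from the others by Dixon's 95% criterion. A rate of 1 in 20, which assumes normal values, would give 2.75. Ctrl 8C library 6 was low in 3 of them, with 27.43 CPM of Tfap2c, 3.429 CPM of Krt8 and 7.43 CPM of Krt18, and it is one of the libraries that stood apart over all genes. Ctrl 2C library 3 was high in Aqp3, at 52.9 CPM. Ctrl 2C library 6, the shallowest of all, was low in Tfap2c, at 16.68 CPM. NI 8C library 5 was low in Atp1b1, at 0.8047 CPM. Tfap2a stood out in VP64 8C library 5 at 0.6263 CPM and in Ctrl 8C library 3 at 0.1531 CPM, on 3 counts and 1 count. It was at 0 in 5 libraries of each of those groups, where very few reads are enough for a flag. Since 3 of the 8 flags also share a library, 8 beside 2.75 is not shown to be an excess over chance.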

How the results depend on the processing

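Cdx2, Krt8, Krt18 and Aqp3 passed as higher at 8C in Ctrl and in NI embryos under every alternative and every left-out library that was run. Members called stayed at 4 in Ctrl (5 without the libraries that stood apart) and between 5 and 7 in NI when 1 library was left out. DESeq2 called 8 members in NI, 6 higher and 2 lower. Counts over all genes depended more on the tool: DESeq2 called 221 genes for KRAB over Ctrl, 1071 for Ctrl over NI at 2C, 1 for VP64 over Ctrl, 21 for VP64 over NI, 1 for Ctrl over NI at 8C and 693 for the interaction, where edgeR called 0 in each. The fit on all 36 libraries gave 6 for KRAB over Ctrl and 559 for Ctrl over NI at 2C, no filter gave 2 for the interaction, and leaving out the libraries that stood apart gave 3 for VP64 over NI. Leaving out 1 library gave 0 to 159 for KRAB over Ctrl, 0 to 1374 for Ctrl over NI at 2C and 0 to 1098 for the interaction, each highest without Ctrl 2C replicate 6. In the interaction it gave 265 without Ctrl 2C replicate 4, 84 without Ctrl 2C replicate 2, and 1 without Ctrl 8C replicate 5, NI 8C replicate 2 or NI 8C replicate 5. The sign of Eomes in NI turned, with a range of -0.999 to 0.21, as did the interaction of Aqp3, with a range of -3.66 to 0.0063 (the highest without Ctrl 2C replicate 3), and the correlation of Krt8 with Krt18 in KRAB 2C, at -0.77 without its 2 farthest libraries. Within a stage, several estimates that did not pass turned too when 1 library was left out, among them Aqp3 in KRAB over Ctrl (-1.87 to 0.65, and 0.67 with DESeq2), Krt8 in KRAB over Ctrl (-0.38 to 0.27) and Tfap2c in KRAB over NI (-0.49 to 0.30). With the size factors of DESeq2 the median over all genes was -0.70 in Ctrl and -0.72 in NI between stages, against -0.51 and -0.47. In NI the split moved to 2134 higher and 4615 lower, against 2433 and 4129. With only the compared groups in the fit, the median over all genes was -0.44 in Ctrl and 0.09 in NI. The causes were not tested. The 60 mean levels moved by less than 1 SD with plain library totals. No paired analysis was possible because the labels give no replicate numbers.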

Other observations

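The genes whose log2(CPM + 1) was most like that of a member over the 36 libraries are given as a description, since the points share stage and depth. For Aqp3 they were Gulo (r = 0.964), Cldn4 (0.961) and Vnn1 (0.955), and Cldn4, a tight junction claudin, averaged 345.2 CPM in VP64 8C, 637.4 in Ctrl 8C and 478.6 in NI 8C, and 3.71 in KRAB 2C, 16.8 in Ctrl 2C and 2.88 in NI 2C. Krt8 was most like Fstl3 (0.940), Tbc1d17 (0.937) and Slc30a7 (0.936), and Krt18 was most like Cyc1 (0.907), Msc (0.894) and Bok (0.886). The nearest to Cdx2 were Plaur (0.890), Prdx6 (0.890) and Usp48 (0.885). Atp1b1 had weaker matches, namely Snx18 (0.789), Fam20b (0.753) and Tmem170 (0.697).

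Markers of cells outside the embryo were also read. Cumulus and granulosa markers summed to between 26.4 and 438.7 CPM in VP64 8C, 36.01 and 117.2 in Ctrl 8C, 60.8 and 113.3 in NI 8C, 61.8 and 551.5 in KRAB 2C, 61.8 and 374.1 in Ctrl 2C and 66.9 and 267.7 in NI 2C. Of these 20 markers, 14 were detected in VP64 8C, 8 in Ctrl 8C and 11 in NI 8C. At 2C, 17 were detected in KRAB, 17 in Ctrl and 16 in NI. Has2, Ptx3, Fshr and Lhcgr stood at 0 in all 3 groups at 8C, and Lhcgr also in all 3 at 2C. Sperm markers summed to at most 25 CPM at 8C and to between 51.98 and 334.0 CPM at 2C. Of these 14 markers, 5 were detected in VP64 8C, 6 in Ctrl 8C and 6 in NI 8C. At 2C, 9 were detected in KRAB, 10 in Ctrl and 8 in NI. Prm3 and Smcp stood at 0 in all 6 groups.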
